A study of Mus musculus with 8 samples.

Results

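The Elovl genes encode the fatty acid elongases, a mouse family of 7 genes named Elovl1 to Elovl7. They were chosen by symbol, and 6 of the 28901 genes in the count table belonged to the family. Elovl2 had no row in the table and was not analysed here. Elovl3 had a row but too few counts to be tested, so 5 members entered the tests. The family was taken up because Elovl7 had shown large increases in Brd against control and in NM-Brdi against NM-DMSO in an earlier look at these libraries. Those fold changes of Elovl7 are therefore given as a description with no test. The other members were taken by name, also with earlier results of these libraries known.

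Elongases are enzymes of the endoplasmic reticulum membrane that lengthen fatty acids beyond the chain made by fatty acid synthase. They condense an activated fatty acid with malonyl-CoA, and a reductase, a dehydratase and a second reductase shared by the whole family then complete the cycle. Members differ in the fatty acids they prefer. ELOVL6 turns palmitate into stearate, ELOVL1, ELOVL3 and ELOVL7 act on saturated and monounsaturated chains, ELOVL2 and ELOVL5 act on polyunsaturated chains, and ELOVL4 makes the longest chains, found in retina, skin and brain. In osteoblasts these fatty acids enter membranes and sphingolipids.

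RNA sequencing was carried out on 8 libraries of MC3T3-E1, a mouse line of pre-osteoblasts from cranial bone that can differentiate into osteoblasts in culture. The titles form 4 groups of 2 libraries each: Brd with control, and NM-Brdi with NM-DMSO. Per the design text, cells were exposed to I-BRD9, a small molecule that blocks the bromodomain of BRD9, or to the solvent DMSO, and an osteogenic medium with dexamethasone, ascorbic acid and a glycerol phosphate was in use. Which libraries had that medium, the meaning of NM and the treatment behind the titles Brd and control are not spelled out in the labels, and the groups keep their titles here. Separate cultures are not stated for the libraries of a group, and the p-values therefore describe library-to-library spread, possibly technical.

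The libraries held 16918182 to 24555028 counts. All 10 osteoblast markers listed were tested, and in CPM (TMM-scaled counts relative to library size) they summed to 9801 to 10050 in Brd against 11220 to 11950 in control, and to 6334 to 6598 in NM-Brdi against 8034 to 9755 in NM-DMSO. Col1a1 and Col1a2, the type I collagen genes, make up most of these sums. Col1a2 was higher in Brd than in control (means of 5201 and 4416 CPM), as was Phex (2.58 and 2.41 CPM). The other listed markers had lower means in Brd, and all 10 had lower means in NM-Brdi than in NM-DMSO. Some of them lay farther apart than the sums. Sp7, an osteoblast transcription factor, averaged 192 CPM in Brd against 405 CPM in control, and 142 CPM in NM-Brdi against 283 CPM in NM-DMSO. Alpl, alkaline phosphatase, averaged 15.1 CPM in Brd against 69.95 CPM in control and 3.50 CPM in NM-Brdi against 22.3 CPM in NM-DMSO, and Ibsp, a bone matrix protein, 488 CPM against 1928 CPM and 4.56 CPM against 148.5 CPM in the same order. The epithelial and adipocyte lists summed to at most 0.655 and 0.72 CPM in a library. Only 4 of the 8 adipocyte markers had a row in the count table, so that sum covers those alone. The 6 macrophage markers, of which 3 were tested, summed to 13.8 to 14.4 CPM in Brd against 24.5 to 26.7 CPM in control, and to 14.4 to 14.97 CPM in NM-Brdi against 18.3 to 26.4 CPM in NM-DMSO. Most of that sum is Lyz2, with a mean of 11.4 CPM in Brd against 23.5 CPM in control, whereas Csf1r had 35 counts in Brd against 10 in control. Ptprc, which defines blood cells, had 0 to 3 counts per group. The part of these marker differences in the results was not tested. The NM-DMSO libraries stood farther apart than those of the other groups, with 2079 of 17038 genes over 2-fold apart against 388 to 597 in the others. Tests are edgeR quasi-likelihood tests on counts, adjusted by Benjamini-Hochberg over the 17038 genes, and a gene is called at an adjusted p under 0.05. They take 1 spread per gene for all groups, so a p-value from the 8 libraries also depends on the NM-DMSO libraries. With 2 libraries per group, libraries that do not overlap are common without any difference between groups, so non-overlap is given as a description.

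Elovl5 had the highest level per length in each of the 4 groups, and the place of the other members changed with the group. On the RPKM scale, which divides CPM by the exon length in kilobases, Elovl5 stood at 32.2 ± 0.457 in Brd, 28.2 ± 0.212 in control, 38.5 ± 1.47 in NM-Brdi and 33.5 ± 0.0359 in NM-DMSO (mean ± SD, n = 2). Elovl1 followed with 15.4 ± 1.19 RPKM in Brd and 17.7 ± 1.75 RPKM in control. In the groups with the prefix NM, Elovl6 came before Elovl1, at 27.3 ± 4.51 RPKM in NM-Brdi and 32.9 ± 5.24 RPKM in NM-DMSO. On this scale the Elovl5 and Elovl6 libraries of NM-DMSO overlapped, so those levels did not differ beyond their spread. With the longest transcript as length they did not overlap, at 42.4 ± 0.0455 RPKM for Elovl5 and 35.5 ± 5.66 RPKM for Elovl6.

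Elovl4 and Elovl7 had the lowest levels of the 5 tested members, with 1 exchange of place. Elovl7 reached 6.16 ± 0.386 RPKM in Brd, above the 1.17 ± 0.0908 RPKM of Elovl4. In control, Elovl4 was the higher, at 1.83 ± 0.16 RPKM against 1.05 ± 0.222 RPKM for Elovl7. In NM-Brdi their libraries overlapped, and in NM-DMSO Elovl4 had 3.11 ± 0.468 RPKM and Elovl7 0.76 ± 0.133 RPKM. Elovl3, known from brown fat and skin, had 2 counts in NM-Brdi replicate 2, 2 in NM-DMSO replicate 1 and 0 in the other 6 libraries. A count of 0 allows a level of up to 0.115 to 0.183 CPM in a library, which covers counting error only.

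**Figure D1:**
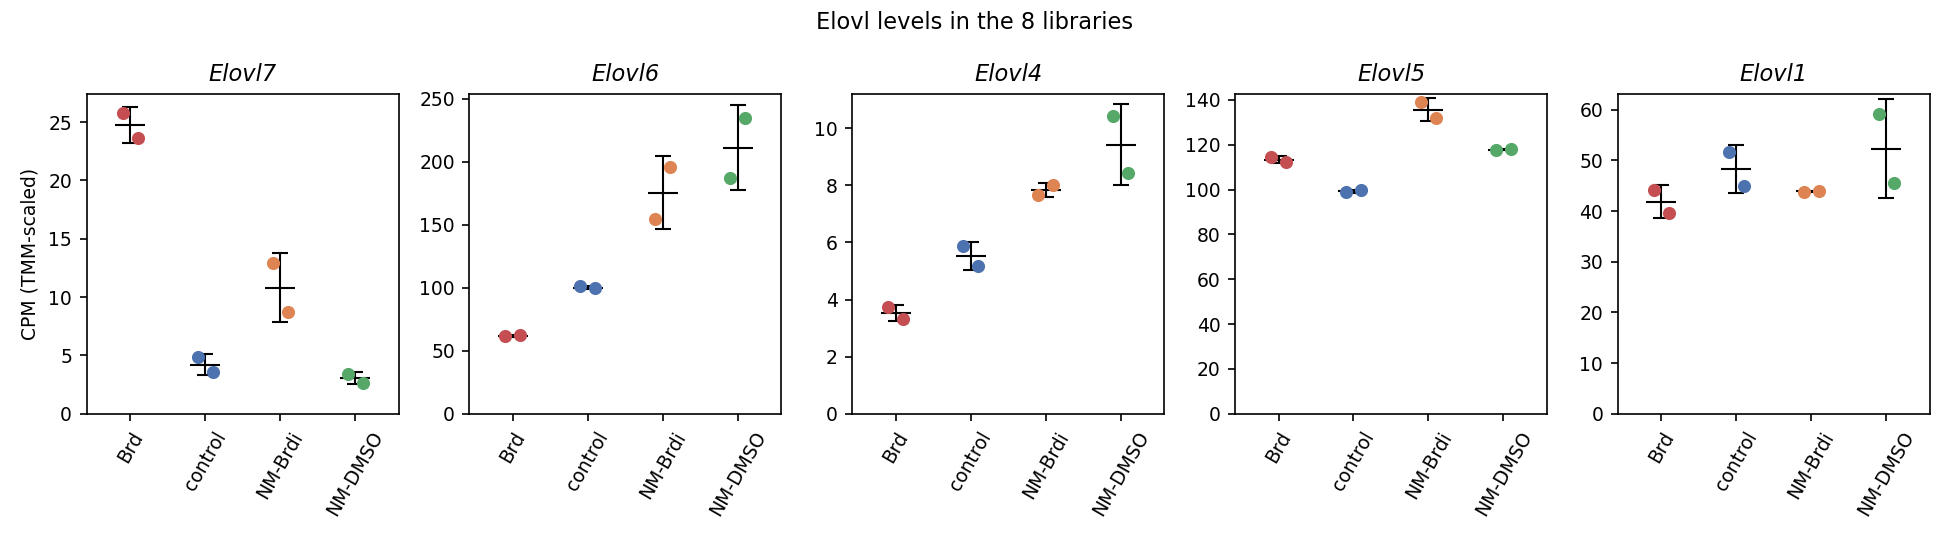
Levels of the 5 tested Elovl genes in CPM (TMM-scaled, linear axes from 0), by group; points are libraries, and the black bar with whiskers is the mean ± SD (n = 2). Elovl7 is highest in the Brd libraries (25.8 and 23.6 CPM), whereas Elovl6 and Elovl4 are lowest there.

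The promoters of Elovl7, Elovl6 and Elovl4 are shown because the levels of these members differed most between groups. Each window runs from 250 bases before the start to 50 after it, 5′ to 3′ on the strand of the gene, from RefSeq on GRCm38.p6. RefSeq windows were given for 6 of the 7 members, and Elovl3 was not among them. Capitals mark matches, on either strand, to any of 9 motifs: the sterol regulatory element (TCACNCCAC), the LXR element (AGGTCA repeated after 4 bases of any kind), the E-box (CACGTG), the CCAAT box (CCAAT), the GC box (GGGCGG), the cyclic AMP element (TGACGTCA) and the motifs of AP-1 (TGANTCA), TCF (CTTTGAT) and TEAD (GGAATG). Elovl7 lies at chr13:108214154-108214453, Elovl6 at chr3:129532136-129532435 and Elovl4, on the minus strand, at chr9:83806256-83806555.
Elovl7: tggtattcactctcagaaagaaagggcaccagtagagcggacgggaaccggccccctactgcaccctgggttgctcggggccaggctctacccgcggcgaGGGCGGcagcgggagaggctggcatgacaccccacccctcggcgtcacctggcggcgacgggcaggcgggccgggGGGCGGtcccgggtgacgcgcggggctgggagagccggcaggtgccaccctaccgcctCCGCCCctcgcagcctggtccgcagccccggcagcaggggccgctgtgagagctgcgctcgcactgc
Elovl6: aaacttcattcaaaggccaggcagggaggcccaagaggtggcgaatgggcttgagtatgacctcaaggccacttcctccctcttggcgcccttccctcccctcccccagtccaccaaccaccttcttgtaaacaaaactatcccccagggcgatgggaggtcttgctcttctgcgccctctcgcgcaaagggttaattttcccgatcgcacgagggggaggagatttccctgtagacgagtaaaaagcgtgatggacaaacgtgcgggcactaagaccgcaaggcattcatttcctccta
Elovl4: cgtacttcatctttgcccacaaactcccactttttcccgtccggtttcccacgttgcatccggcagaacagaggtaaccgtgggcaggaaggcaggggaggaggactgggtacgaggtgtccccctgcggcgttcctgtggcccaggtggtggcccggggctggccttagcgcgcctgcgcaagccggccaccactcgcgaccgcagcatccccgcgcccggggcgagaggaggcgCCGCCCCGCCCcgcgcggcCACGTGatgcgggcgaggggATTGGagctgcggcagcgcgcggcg
In the Elovl7 window the capitals are 3 GC boxes, and 74.0% of its bases are G or C. The Elovl6 window held no match to the 9 motifs and was 55.7% G or C, near the median of 52.7% over all promoters. The Elovl4 window held a pair of GC boxes that share a base and a CCAAT box, all on the other strand. It also held an E-box at base 6 after the start. A GC box is present in 35.7% of the 32851 RefSeq promoters of this length, an E-box in 7.15% and a CCAAT box in 37.4%. Of the windows not shown, that of Elovl5 held an E-box, a cyclic AMP element, which 1.79% of promoters hold, and CCAAT boxes. A match describes letters, and the lack of one says only that they are not in the window.

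Elovl7, which elongates saturated fatty acids (chromosome 13, 108214404 to 108285683, plus strand, GRCm38), was the tested member with the largest ratio between its highest and lowest library. It had 25.8 and 23.6 CPM in the Brd libraries, against 4.83 and 3.57 CPM in the control libraries. The Brd libraries were both above the control libraries, a 5.85-fold difference (log2 fold change 2.55). It had 12.9 and 8.74 CPM in the NM-Brdi libraries, against 3.42 and 2.67 CPM in the NM-DMSO libraries. The NM-Brdi libraries were likewise both above NM-DMSO, a 3.55-fold difference (log2 fold change 1.83). Its promoter was the richest in G and C of the 3 printed. Of 17038 tested genes, 52 had a larger log2 fold change than Elovl7 in Brd against control and 95 in NM-Brdi against NM-DMSO. These levels rest on 423 and 411 counts in the Brd libraries and 94 and 60 in the control libraries, and on 337 and 220 counts with NM-Brdi and 69 and 60 with NM-DMSO. In bulk RNA, fewer cells that express a gene and less RNA per cell cannot be told apart.

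Elovl7 was ordered Brd, NM-Brdi, control and NM-DMSO from high to low. It was higher in Brd than in NM-Brdi (fitted log2 fold change 1.19, SE 0.23, adjusted p = 0.0173). This call was lost without Brd replicate 1 (adjusted p = 0.137), Brd replicate 2 (0.107) or NM-Brdi replicate 2 (0.146), and the log2 fold change was 0.93 without the last. Between control and NM-DMSO the libraries did not overlap, but the test was not passed (log2 fold change 0.47, 95% interval -0.15 to 1.10, adjusted p = 0.21). Both of these comparisons share libraries with those in which Elovl7 was noticed. The Brd libraries, whose high level led to the choice, are part of the first, so its p-value is no independent support. The difference between its Brd and NM-Brdi effects was 0.72 on the log2 scale.

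Elovl6, the elongase of palmitate (chromosome 3, 129532355 to 129638495, plus strand), was lower in Brd than in control, and lower without the prefix NM than with it. It had 61.4 and 62.1 CPM in the Brd libraries, against 101.0 and 99.4 CPM in the control libraries. Neither Brd library reached the control level (log2 fold change -0.70, SE 0.15, adjusted p = 0.0347). This call was lost without any 1 of the Brd, control and NM-Brdi libraries, with an adjusted p of at most 0.251 (without Brd replicate 1) and of 0.0511 without NM-Brdi replicate 1. The log2 fold change itself stayed between -0.71 and -0.69. In NM-Brdi it had 155 and 196 CPM, against 187 and 235 CPM in NM-DMSO, and these libraries overlapped (log2 fold change -0.27, SE 0.15, 95% interval -0.61 to 0.07, adjusted p = 0.315). Without NM-DMSO replicate 1 that difference was called (log2 fold change -0.42, adjusted p = 0.00186), and without NM-DMSO replicate 2 it was not (-0.10, adjusted p = 0.374), in fits that take no spread from NM-DMSO. Elovl6 shared 805 nt at 95% identity or more with Gm11295, which had 57 to 254 counts of its own, against 1006 to 5278 for Elovl6, so reads of that stretch could be shared.

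The largest differences of Elovl6 were those across the prefix NM. It was 2.84-fold lower in Brd than in NM-Brdi (fitted log2 fold change -1.50, SE 0.15, adjusted p = 0.00118). It stayed called whichever library was left out, with an adjusted p of at most 0.0285. It was 2.11-fold lower in control than in NM-DMSO (log2 fold change -1.08, SE 0.15, adjusted p = 0.00373). That call was lost without control replicate 1 or 2 (adjusted p = 0.0539 and 0.0561) and when those 4 libraries were fitted on their own (0.0533).

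Elovl4, the elongase of very long chains (chromosome 9, 83778692 to 83806277, minus strand), had fold changes of the same sign as Elovl6 at a much lower level. It had 3.72 and 3.33 CPM in the Brd libraries, against 5.86 and 5.18 CPM in the control libraries. The Brd libraries were both lower, yet this was not called (log2 fold change -0.65, SE 0.20, adjusted p = 0.105). It passed without NM-DMSO replicate 1 or 2 (adjusted p = 0.00931 and 0.0099), with the 4 Brd and control libraries fitted on their own (0.00956) and with voom (0.00966). In NM-Brdi it had 7.66 and 8.02 CPM, against 10.4 and 8.42 CPM in NM-DMSO (log2 fold change -0.26, SE 0.18, adjusted p = 0.401). Without NM-DMSO replicate 2 this was called (-0.41, adjusted p = 0.0495), and without NM-DMSO replicate 1 it was not (-0.10, adjusted p = 0.787).

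Elovl4 was 2.22-fold lower in Brd than in NM-Brdi (fitted log2 fold change -1.15, SE 0.19, adjusted p = 0.00966) and 1.70-fold lower in control than in NM-DMSO (log2 fold change -0.77, SE 0.18, adjusted p = 0.0278). The call in Brd against NM-Brdi was lost without any 1 of those 4 libraries, with an adjusted p of 0.072 to 0.109. The call in control against NM-DMSO was lost without any 1 library of Brd, control or NM-Brdi, with an adjusted p of 0.0608 to 0.168. It was also lost in a fit of the 4 libraries (0.159) and with voom (0.151).

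Elovl5, an elongase of polyunsaturated fatty acids (chromosome 9, 77917364 to 77984519, plus strand), ranged over the 8 libraries between 98.7 and 139 CPM. It had 114 and 112 CPM in the Brd libraries, against 98.7 and 99.8 CPM in the control libraries. It had 139 and 132 CPM in the NM-Brdi libraries, against 118 and 118 CPM in the NM-DMSO libraries. In each of these pairs the libraries did not overlap, but neither difference was called (log2 fold change 0.19, SE 0.09, adjusted p = 0.286, and 0.20, SE 0.09, adjusted p = 0.236). Across the prefix NM the log2 fold change was -0.26 in Brd against NM-Brdi (adjusted p = 0.111) and -0.25 in control against NM-DMSO (adjusted p = 0.0741). Each of these 4 differences was called without NM-DMSO replicate 1 (adjusted p = 0.0171, 0.0413, 0.000319 and 0.00622) and without NM-DMSO replicate 2 (0.0123, 0.0139, 0.00055 and 0.00311), at nearly the same size.

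Elovl1, which elongates saturated chains for sphingolipids (chromosome 4, 118428093 to 118432953, plus strand), showed no difference that passed the test. It had 44.2 and 39.6 CPM in the Brd libraries, against 51.6 and 44.9 CPM in the control libraries (log2 fold change -0.21, 95% interval -0.55 to 0.14). It had 43.8 and 44.0 CPM in the NM-Brdi libraries, against 59.2 and 45.5 CPM in the NM-DMSO libraries (log2 fold change -0.25, 95% interval -0.60 to 0.09). NM-DMSO replicate 1 was the highest of the 8. Without NM-DMSO replicate 2, which leaves that library alone in its group, Elovl1 was called lower in NM-Brdi (fitted log2 fold change -0.43, adjusted p = 0.000424) and in control (-0.29, adjusted p = 0.00981). Without replicate 1 the difference between control and NM-DMSO turned to 0.09 (adjusted p = 0.514), that between NM-Brdi and NM-DMSO was -0.05 (adjusted p = 0.817), and Elovl1 was called lower in Brd than in control (-0.22, adjusted p = 0.0473). Its exons overlap those of Cdc20 by 53 nt, and the strand setting of the counting is not given in the sources used here.

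**Figure D2:**
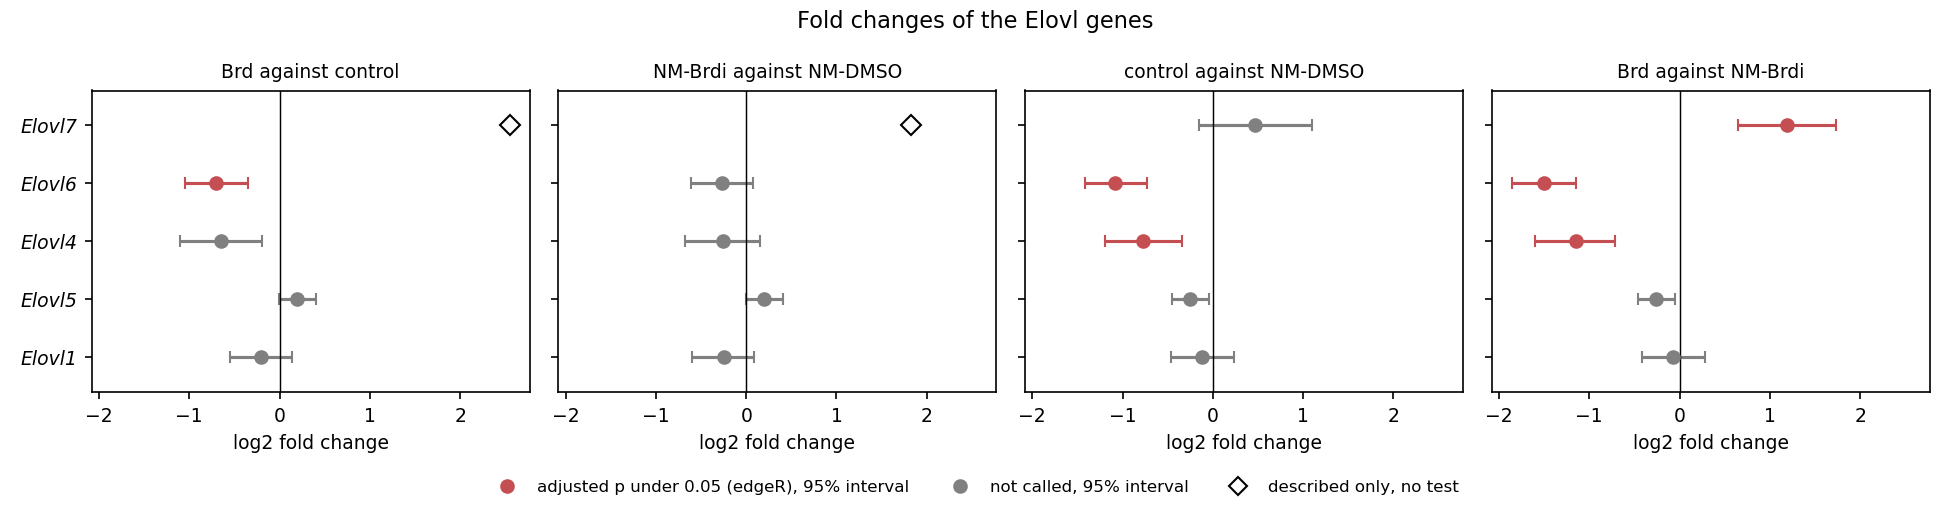
Fitted log2 fold changes of the 5 Elovl genes in 4 comparisons, with the first-named group over the other; circles carry 95% intervals and are red when the edgeR adjusted p is under 0.05, and open diamonds mark Elovl7 where it is described with no test. Elovl6 and Elovl4 lie left of 0 in each panel and Elovl7 right of it.

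Read over the family, 1 of the 4 members tested between Brd and control was called lower and 0 higher, against 3.45% lower and 3.13% higher, 6.58% together, over all 17038 genes (edgeR; 2 lower and 0 higher at an unadjusted p under 0.05, and 1 and 0 with DESeq2). Between NM-Brdi and NM-DMSO, 0 of the 4 were called, against 1.87% of all genes, of which 0.816% higher and 1.05% lower (0 at an unadjusted p under 0.05 and 0 with DESeq2). Between control and NM-DMSO, 2 of 5 were called lower and 0 higher, against 11.5% and 12.0% of all genes, 23.4% together. Between Brd and NM-Brdi, 2 of 5 were called lower and 1 higher, against 3.77% and 6.73%, 10.5% together. The member called higher there is Elovl7, for whose level in Brd the family was taken up, so it is no independent count. With so few members these shares cannot be set apart from the background. For the difference between the Brd and NM-Brdi effects, 0 of 4 were called, against 0.0411% of all genes, of which 0.0117% higher and 0.0293% lower (0 at an unadjusted p under 0.05 and 0 with DESeq2). Elovl6 had the largest such difference of those 4 members, -0.43 on the log2 scale (SE 0.21, adjusted p = 0.571). It was called without NM-DMSO replicate 2 (-0.60, adjusted p = 0.000392) and not without NM-DMSO replicate 1 (-0.29, adjusted p = 0.164).

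The summed level of the 6 genes was close within each pair, while its make-up was not the same. It was 64.5 ± 2.04 RPKM in Brd against 64.4 ± 2.08 RPKM in control, and 87.2 ± 2.45 RPKM in NM-Brdi against 89.4 ± 1.08 RPKM in NM-DMSO (mean ± SD, n = 2). Elovl7 made up 9.55% ± 0.296 of it in Brd against 1.62% ± 0.293 in control, and 3.11% ± 0.931 of it in NM-Brdi against 0.85% ± 0.158 in NM-DMSO. Elovl6 made up 14.9% ± 0.599 in Brd against 24.2% ± 0.526 in control, and 31.2% ± 4.29 in NM-Brdi against 36.7% ± 5.42 in NM-DMSO. The Elovl7 share was larger in Brd and in NM-Brdi than in the other group of the pair, and the Elovl6 share of Brd and control did not overlap. Elovl5 made up 49.9% ± 0.869 in Brd against 43.8% ± 1.75 in control, and 44.2% ± 2.93 in NM-Brdi against 37.4% ± 0.412 in NM-DMSO. The shares add up to a fixed total, so a larger share of 1 member lowers the others, and no test was made on them.

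**Figure D3:**
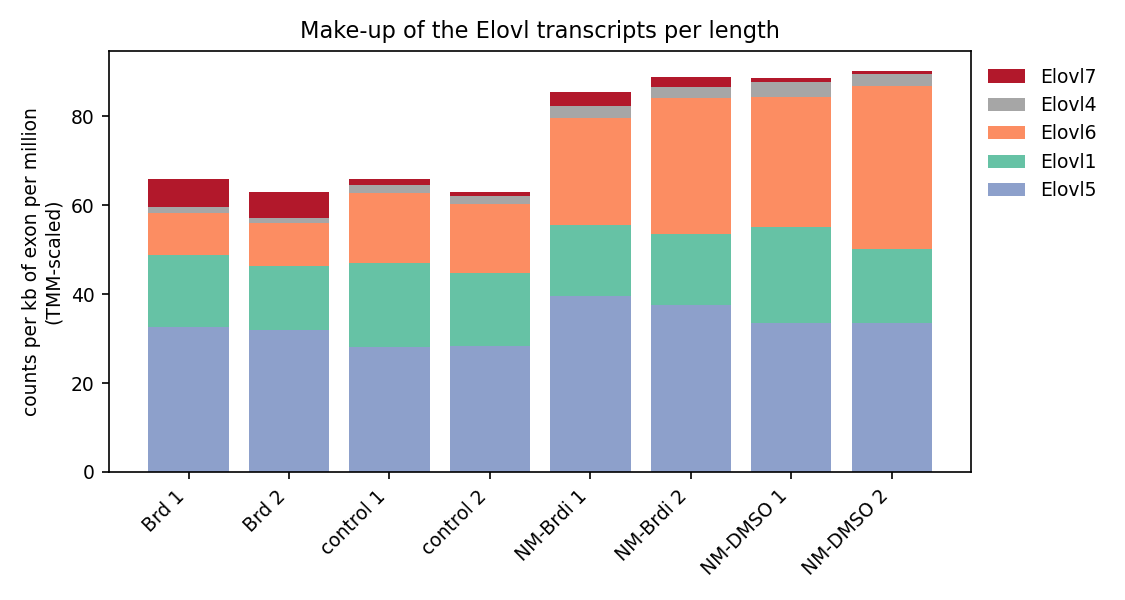
Stacked levels of the Elovl genes per length in each library, in RPKM (CPM per kilobase of exon, linear axis from 0); Elovl3 is too low to be drawn. The bars of the Brd and control libraries have nearly the same height (63.0 to 65.9 in Brd, 62.9 to 65.8 in control), with more Elovl7 and less Elovl6 in Brd.

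The 5 genes listed next followed Elovl7 most closely over the 8 libraries by Pearson r of log2 CPM, among 9308 genes with a mean of at least 10 CPM and a given name. Kif5b, a kinesin heavy chain, had an r of 0.991. Kdm4b, a histone demethylase, followed with 0.990, and Cited2, a transcriptional co-regulator, with 0.987. Sox11, a transcription factor of skeletal and neural progenitors, had 0.986 and Carhsp1, an RNA-binding protein, 0.985. Sox11 had 64.7 and 64.8 CPM in Brd and 23.2 and 20.9 CPM in control, with 48.2 and 39.8 CPM in NM-Brdi against 20.9 and 21.7 CPM in NM-DMSO. Kif5b ran in the same order with a much narrower range, 353 and 340 CPM in Brd and 273 and 265 CPM in control. With 8 libraries in 4 groups many genes reach such values, and 250 of the 9308 had an r over 0.9. The libraries share their groups, so the coefficients are a description. Which genes were the 5 closest changed with Spearman rho, computed on ranks (0.881 for Sox11), and when some single libraries were left out.

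The enzymes that share the elongation cycle with the Elovl genes did not move as one. Hacd2, a dehydratase of the cycle, had 28.5 and 29.1 CPM in Brd, against 47.5 and 44.5 CPM in control. The libraries did not overlap, and Hacd2 was lower (log2 fold change -0.67, SE 0.14, adjusted p = 0.027). It had 12.03 and 12.75 CPM in NM-Brdi, against 18.2 and 22.7 CPM in NM-DMSO, and was lower there as well (-0.72, SE 0.14, adjusted p = 0.0494). Left out 1 at a time, libraries moved these adjusted p-values up to 0.227 and 0.478, and each call held only in the 2 fits that leave out an NM-DMSO library. The second call was also lost with RLE factors (adjusted p = 0.052). It was lost too in a fit of the 4 NM-Brdi and NM-DMSO libraries, which called 0 genes. Hacd2 was higher in Brd than in NM-Brdi (fitted log2 fold change 1.22, adjusted p = 0.00206) and in control than in NM-DMSO (1.17, adjusted p = 0.00184), whichever library was left out.

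Hsd17b12, the first reductase of the cycle, and Tecr, the last, were lower without the prefix NM, like Elovl6 and Elovl4. Hsd17b12 averaged 76.5 ± 1.69 CPM in control and 125 ± 22.3 CPM in NM-DMSO (log2 fold change -0.71, adjusted p = 0.0118). It averaged 69.6 ± 1.16 CPM in Brd and 101 ± 0.825 CPM in NM-Brdi (-0.53, adjusted p = 0.0396). Tecr fell by 0.89 on the log2 scale in control against NM-DMSO (adjusted p = 0.0113) and by 0.74 in Brd against NM-Brdi (adjusted p = 0.0266). Hacd3, another dehydratase, was higher in Brd than in NM-Brdi (0.59, adjusted p = 0.0179), and Hacd4 was higher in control than in NM-DMSO (0.76, adjusted p = 0.0348). Of the 6 tested cycle partners, 1 was thus called lower and 0 higher in Brd and likewise in NM-Brdi, while 2 were lower and 2 higher in each comparison across the prefix. Over all genes, 6.58% were called in Brd against control, 1.87% in NM-Brdi against NM-DMSO, 23.4% in control against NM-DMSO and 10.5% in Brd against NM-Brdi, so a gene of any kind was called more often across the prefix than within the pairs. The median log2 fold change of the 6 was -0.05 in Brd against control, -0.25 in NM-Brdi against NM-DMSO, -0.12 in control against NM-DMSO and 0.22 in Brd against NM-Brdi. Over all genes these medians lay between -0.02 and 0.00.

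Some genes of fatty acid synthesis were lower without the prefix NM, as Elovl6 was. Of 10 genes that make fatty acids or their malonyl-CoA building block, 6 were called lower and 0 higher in control against NM-DMSO (median log2 fold change -0.58), and 3 lower and 0 higher in Brd against NM-Brdi (median -0.38). The shares of all genes called lower in these comparisons were 11.5% and 3.77%. Acly, which makes cytosolic acetyl-CoA, fell by 0.95 on the log2 scale in control against NM-DMSO (adjusted p = 0.00319). Acaca, the acetyl-CoA carboxylase that makes malonyl-CoA, fell by 0.89 (adjusted p = 0.0032). Me1, malic enzyme, fell by 1.36 (adjusted p = 0.00679), with 66.8 and 64.5 CPM in control and 212 and 126 CPM in NM-DMSO. Acaca, Acly and Fasn, the fatty acid synthase, fell by 0.79, 0.58 and 0.43 in Brd against NM-Brdi (adjusted p = 0.00632, 0.0261 and 0.0391). Within the pairs, 0 of the 10 were called by edgeR or by DESeq2. At an unadjusted p under 0.05, 1 was higher and 0 lower in Brd, and 1 was higher and 2 lower in NM-Brdi.

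Of the desaturases, which place double bonds in the chains, Fads2 had the smallest p-values across the prefix NM. Fads2, the first desaturase of polyunsaturated fatty acids, had 125 and 125 CPM in Brd, against 325 and 308 CPM in NM-Brdi, and was lower (-1.34 on the log2 scale, SE 0.09, adjusted p = 0.000212). It had 160 and 155 CPM in control, against 331 and 335 CPM in NM-DMSO (-1.08, SE 0.09, adjusted p = 0.000395). Both differences were called whichever library was left out. Fads1 fell by 0.42 in control against NM-DMSO and by 0.70 in Brd against NM-Brdi (adjusted p = 0.019 and 0.0031), and Scd1, the stearoyl-CoA desaturase, by 0.95 in Brd against NM-Brdi (adjusted p = 0.00704). Fads6, a member of little known function, was 2.87-fold higher in control than in NM-DMSO (adjusted p = 0.0223). Of 8 desaturases, 4 were called lower and 2 higher in Brd against NM-Brdi, and 2 lower and 1 higher in control against NM-DMSO, where 10.5% and 23.4% of all genes were called. Fads3 was the 1 member called in Brd against control by edgeR (0.58, adjusted p = 0.028). At an unadjusted p under 0.05, 1 was higher and 3 lower there, and DESeq2 called 1 higher and 1 lower. The median log2 fold change of the 8 was -0.21. In NM-Brdi against NM-DMSO 0 were called by edgeR, with 0 at an unadjusted p under 0.05 and 0 with DESeq2.

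**Figure D4:**
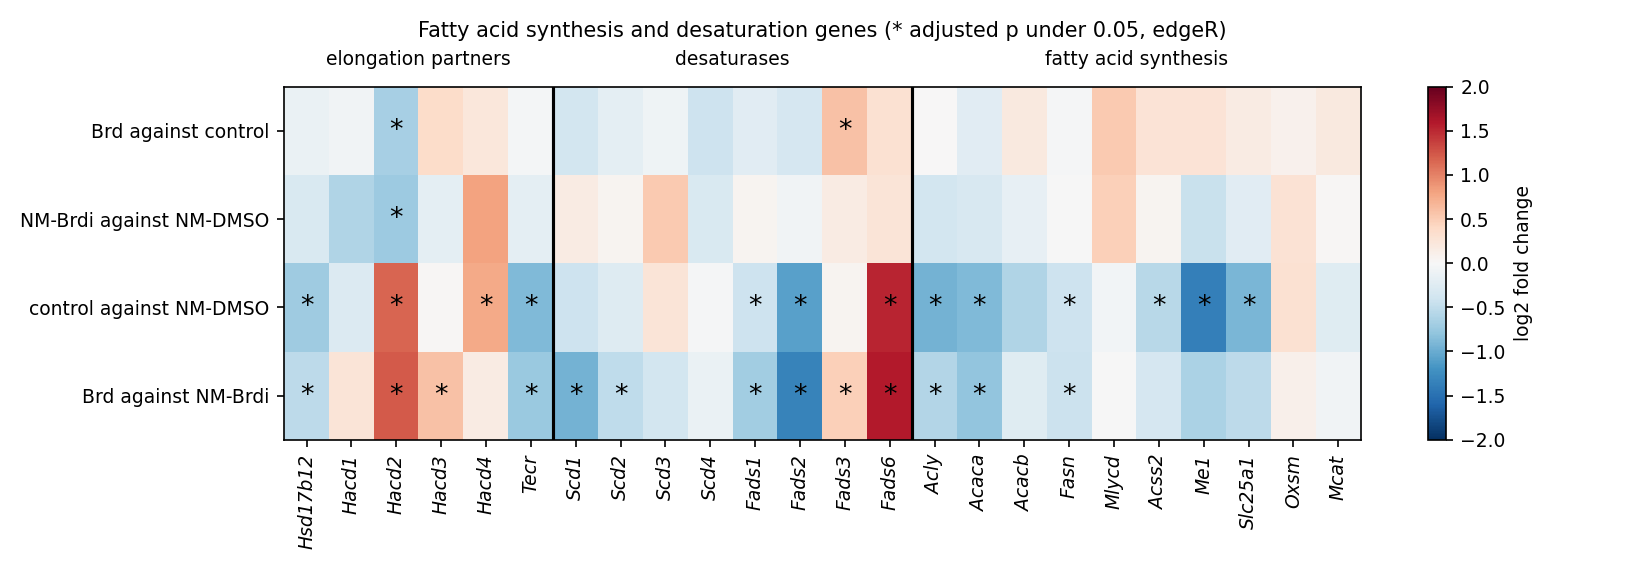
Fitted log2 fold changes (colour scale from -2 to 2, first-named group over the other) of the tested cycle partners, desaturases and fatty acid synthesis genes; asterisks mark an edgeR adjusted p under 0.05. Most asterisks stand in the lower 2 rows, which compare groups across the prefix, where Fads2, Acly and Acaca are lower and Hacd2 is higher.

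Among regulators of these genes, Srebf1 was not called and Insig1 was lower without the prefix NM. Srebf1, which encodes the SREBP-1 activator of fatty acid synthesis genes, had 47.2 and 45.9 CPM in Brd, against 47.3 and 43.7 CPM in control (log2 fold change 0.03, 95% interval -0.24 to 0.30, adjusted p = 0.941). It had 48.9 and 46.7 CPM in NM-Brdi, against 39.8 and 46.8 CPM in NM-DMSO (0.14, adjusted p = 0.483), and its libraries overlapped in both pairs. It was called in none of the 5 comparisons. Insig1, the sterol-dependent brake on SREBP and itself a target of it, fell by 0.50 in control against NM-DMSO (adjusted p = 0.0135) and by 0.87 in Brd against NM-Brdi (adjusted p = 0.00182). Rxra, the partner of LXR and PPAR receptors, was higher in control than in NM-DMSO (0.65, adjusted p = 0.00484) and in Brd than in NM-Brdi (0.62, adjusted p = 0.00675). Mlxip, a glucose-sensing factor, was higher by 1.05 and 0.79 in the same comparisons (adjusted p = 0.00715 and 0.0244). Of 12 tested regulators, 2 were called higher and 2 lower in control against NM-DMSO, and 2 higher and 1 lower in Brd against NM-Brdi, where 23.4% and 10.5% of all genes were called. In the pairs 0 were called by edgeR, with 1 lower at an unadjusted p under 0.05 in each, and DESeq2 called 1 lower in Brd and 0 in NM-Brdi.

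Of the activation and uptake genes, which supply the elongases with acyl-CoA, Acsl3 was called lower in 3 comparisons. Acsl3, an acyl-CoA synthetase, fell by 0.39 in Brd against control (adjusted p = 0.0421), by 0.94 in control against NM-DMSO (adjusted p = 0.000676) and by 1.03 in Brd against NM-Brdi (adjusted p = 0.000599). Acsl4, which prefers arachidonate, was higher in control than in NM-DMSO (0.49, adjusted p = 0.0135) and in Brd than in NM-Brdi (0.44, adjusted p = 0.0227). Cd36, a fatty acid receptor, had 0 counts in control and 49 in NM-DMSO, and 0 in Brd and 13 in NM-Brdi, at most 1.34 CPM in a library. Slc27a6, a fatty acid transport protein, had 6 counts in Brd and 58 in NM-Brdi (fitted log2 fold change -2.64, adjusted p = 0.0298). With 1 library left out its log2 fold change ran from -4.08 to -1.95, and it was called in 2 of 8 fits. Of 10 tested genes, 1 was lower and 0 higher in Brd against control, 3 lower and 1 higher in control against NM-DMSO and 2 lower and 1 higher in Brd against NM-Brdi, beside 6.58%, 23.4% and 10.5% of all genes. In NM-Brdi against NM-DMSO 0 were called (edgeR; 2 higher and 4 lower at an unadjusted p under 0.05, 0 with DESeq2). Of the 22 calls of named pathway genes in each comparison across the prefix, 4 and 5 held whichever library was left out, those of Hacd2, Fads2, Acsl3 and Cers6 in both and of Insig1 in Brd against NM-Brdi. The others reached an adjusted p of at most 0.206 in control against NM-DMSO and 0.287 in Brd against NM-Brdi. The 4 and 1 calls in Brd against control and NM-Brdi against NM-DMSO were each lost without some library (adjusted p at most 0.314 and 0.478). For the difference between the Brd and NM-Brdi effects, 0 genes of the 8 pathway lists were called by edgeR or DESeq2, with at most 2 of a list at an unadjusted p under 0.05.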

How the data were processed

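The authors deposited 1 table of raw read counts for 28901 genes. Of its making, the submitters' processing notes name featureCounts 2.0.3, STAR 2.7.10a, Trimmomatic 0.39 and FastQC 0.11.9 as tools and GRCm38 and GRCh38 as builds. Which gene annotation and strand setting were used is not given there. Genes were kept with filterByExpr of edgeR 4.0.16 (17038 of 28901), scaled with TMM factors and tested with quasi-likelihood F-tests (glmQLFit, glmQLFTest, under R 4.3.3), all 8 libraries sharing 1 model of group means. P-values were adjusted by Benjamini-Hochberg over all tested genes, and a gene was called under 0.05. Standard errors come from the F statistic. CPM are counts relative to the TMM-scaled library size, and 1 CPM stood for 16.4 to 26.1 counts. Lengths are unions of exons in GENCODE M21 (GRCm38), to which 96.9% of symbols matched, and shared sequence was sought with BLAST+ 2.17.0 (at least 200 nt at 95% identity).

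The members and lists were chosen with earlier results of these data known. Named genes are the Elovl genes, Hsd17b12, Tecr, Hacd2, Hacd3 and Srebf1 whatever their result, up to 3 called members of each pathway list per comparison by smallest p, and the 5 genes most like Elovl7; other members of a list named in the text were named after their values were seen. On counts simulated for Brd against control over 17038 genes, the test recovered 8.96% of genes changed 1.5-fold, 50.7% of those changed 2-fold and 81.8% of those changed 4-fold. The shares simulated for NM-Brdi against NM-DMSO were 8.96%, 55.2% and 87.9%. In each simulation 67, 67 and 66 genes were changed at these folds, in 1 group. All other means were equal between groups, and each gene had the same spread in every group. In the data more genes were called and the NM-DMSO libraries stood farther apart, so these shares do not give the recovery there. Alternatives were no filter, RLE factors, DESeq2 1.42.0, limma 3.58.1 voom with quality weights, a replicate block, a fit of 4 libraries and each library left out. A comparison of the Elovl proteins was planned and not made here. The result of 1 gene of the lists is not reported here.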

Additional observations from a re-analysis of the deposited data

How the results depend on the processing

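The number of called genes depended on the libraries in the fit. With 1 library left out it ran from 34 to 5546 in Brd against control, from 8 to 9556 in NM-Brdi against NM-DMSO, from 555 to 11204 in control against NM-DMSO, from 389 to 7689 in Brd against NM-Brdi and from 0 to 7480 for the difference of the effects (where 0 were called by edgeR, 928 to 1120 had an unadjusted p under 0.05, and DESeq2 on the 8 libraries called 299). The highest counts came without an NM-DMSO library; a group left with 1 library is assumed to vary like the others. In the same order of comparisons, 1848, 2453, 6274, 3198 and 608 genes were called with no filter, and 5876, 144, 2597, 7380 and 154 with voom. Fits of the 4 libraries called 6412, 0 (1463 at an unadjusted p under 0.05), 382 and 7223 in the first 4. DESeq2 called 928 in NM-Brdi against NM-DMSO. The causes were not tested.

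Of the tested log2 fold changes of the Elovl genes, 118 of 128 alternatives outside the left-out libraries kept direction and call, and 17 more of the untested Elovl7 values kept direction. The exceptions were fits of the 4 libraries, which called Elovl1 (-0.21), Elovl4 (-0.65) and Elovl5 (0.19) in Brd against control and Elovl5 (-0.27) in Brd against NM-Brdi, and did not call Elovl4 (-0.77) and Elovl6 (-1.08) in control against NM-DMSO. Voom called Elovl4 (-0.65) and Elovl5 (0.19) in Brd against control and Elovl5 (-0.26) in Brd against NM-Brdi, and did not call Elovl4 (-0.74) in control against NM-DMSO.

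With 1 library left out, the log2 fold changes in Brd against control ran from -0.30 to -0.10 for Elovl1, -0.73 to -0.55 for Elovl4, 0.18 to 0.21 for Elovl5, -0.71 to -0.69 for Elovl6 and 2.35 to 2.79 for Elovl7. In NM-Brdi against NM-DMSO they ran from -0.43 to -0.05 for Elovl1, -0.41 to -0.10 for Elovl4 and 0.16 to 0.24 for Elovl5. There Elovl6 ran from -0.45 to -0.10 and Elovl7 from 1.52 to 2.08. The Elovl7 value was lowest without NM-Brdi replicate 1. In control against NM-DMSO they ran from -0.29 to 0.09 for Elovl1, -0.91 to -0.60 for Elovl4 and -0.25 to -0.24 for Elovl5. Elovl6 ran from -1.23 to -0.90 in that comparison and Elovl7 from 0.23 to 0.67. In Brd against NM-Brdi they ran from -0.14 to 0.01 for Elovl1, -1.23 to -1.07 for Elovl4 and -0.30 to -0.22 for Elovl5. Elovl6 ran from -1.66 to -1.33 in that comparison and Elovl7 from 0.93 to 1.5. For the difference of the effects they ran from -0.17 to 0.22 for Elovl1, -0.56 to -0.24 for Elovl4 and -0.05 to 0.03 for Elovl5. Elovl6 ran from -0.60 to -0.25 for this difference and Elovl7 from 0.46 to 1.03. Uncalled values near 0 that changed sign were those of Srebf1 in Brd against control (-0.02 to 0.09) and in control against NM-DMSO (-0.04 to 0.20), Tecr in NM-Brdi against NM-DMSO (-0.40 to 0.07), Hacd3 in control against NM-DMSO (-0.11 to 0.19), and, for the difference, Hsd17b12 (-0.04 to 0.34), Tecr (-0.12 to 0.36) and Hacd2 (-0.12 to 0.18).

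The titles do not say whether the replicate numbers pair the libraries. The deviations of same-numbered libraries correlated at -0.00286 to 0.152 and passed 0.1 in 1 of 6 pairs of groups, NM-Brdi with NM-DMSO. These correlations cannot settle whether libraries were paired. With the numbers as a replicate block, 188 genes were called in NM-Brdi against NM-DMSO, where 318 were called without it. With the block, 970 were called in Brd against control, 3753 in control against NM-DMSO, 1550 in Brd against NM-Brdi and 5 for the difference. No Elovl call changed with it. With the longest transcript as length, Elovl1 averaged 25.7 RPKM over the 8 libraries in place of 17.1, and Elovl5 41.9 in place of 33.1. The order of the members in each group stayed as given, while the Elovl5 and Elovl6 libraries of NM-DMSO no longer overlapped. Depth limits Elovl3, and Elovl4 and Elovl7 rest on 58 to 423 counts per library.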

Other observations

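Over all tested genes, 6.58% were called in Brd against control, 1.87% in NM-Brdi against NM-DMSO, 23.4% in control against NM-DMSO and 10.5% in Brd against NM-Brdi. The counts of calls in the lists described here are to be read beside these shares. Whether a list departs from them was not tested. Ugcg, the glucosylceramide synthase, was higher in Brd than in control (log2 fold change 0.98, SE 0.12, adjusted p = 0.00573) and in Brd than in NM-Brdi (0.58, adjusted p = 0.025). Cers6, a ceramide synthase, was higher in control than in NM-DMSO (1.29, adjusted p = 0.00197) and in Brd than in NM-Brdi (1.35, adjusted p = 0.00201). Kdsr, of sphingoid base synthesis, fell by 0.55 in control against NM-DMSO (adjusted p = 0.0295). Of 15 tested genes of ceramide and sphingolipid synthesis, 1 was called higher and 0 lower in Brd against control, 1 higher and 1 lower in control against NM-DMSO, and 2 higher and 0 lower in Brd against NM-Brdi. In NM-Brdi against NM-DMSO 0 were called (edgeR; 2 higher and 1 lower at an unadjusted p under 0.05, 0 with DESeq2).

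Of 10 genes of peroxisomal import and oxidation, 0 were called in either pair (edgeR; 1 higher at an unadjusted p under 0.05 in each, 0 with DESeq2). Abcd3, which carries other acyl-CoAs, fell by 0.42 in control against NM-DMSO and by 0.41 in Brd against NM-Brdi (adjusted p = 0.029 and 0.0448). Ehhadh, a peroxisomal bifunctional enzyme, was higher in Brd than in NM-Brdi (1.04, adjusted p = 0.0476). Of 10 genes of lipid droplets and phospholipid remodelling, 3 were called lower and 0 higher in control against NM-DMSO and 1 lower and 0 higher in Brd against NM-Brdi. Over all genes, 11.5% and 3.77% were called lower in these comparisons, and 23.4% and 10.5% in either direction. Dgat2, a triglyceride synthase, fell by 1.84 and 1.58 in these comparisons (adjusted p = 0.00426 and 0.00832), and Gpam and Plin2 fell by 0.49 and 0.39 in control against NM-DMSO (adjusted p = 0.0255 and 0.0458). In the pairs 0 of the 10 were called (edgeR; 1 higher in Brd and 1 lower in NM-Brdi at an unadjusted p under 0.05, 0 with DESeq2).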
